A study of Mus musculus with 6 samples.

Results

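Cell cycle genes were compared between primary hepatocytes of FOXA2f/f and FOXA2H-KO fibrotic mice. The 41 genes, among the 34745 counted in the files, were named by symbol, with earlier results of these data known. They were divided into 21 genes of the G1/S step and 20 genes of G2 and mitosis. All 41 had enough counts to be tested. The label fits the data in so far as every one of the 41 transcripts was counted in every library, with between 106 and 5380 fragments each.

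All mice were male, 12 weeks old and carried floxed Foxa2 alleles. The control group, FOXA2f/f+CCl4, received AAV8-TBG-Control by the tail vein, and the FOXA2H-KO+CCl4 group received AAV8-TBG-Cre, in which the hepatocyte-specific TBG promoter drives Cre recombinase, so that the deletion was directed to hepatocytes. The virus was given 2 weeks before CCl4, a hepatotoxin that both groups then received at 0.25 ml/kg in 2 injections per week for 4 weeks. Mice were killed 3 days after the last dose, and the hepatocytes were obtained by collagenase perfusion and low-speed centrifugation. Each group had 3 RNA-seq libraries, numbered 1, 2 and 4. No library of mice without CCl4 was analysed here, so a rise of these genes over the uninjured liver cannot be measured. The labels do not tie libraries to mice, and the p-values below measure the spread between these libraries.

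Most hepatocytes of the adult liver rest outside the cell cycle. After a loss of hepatocytes, as after a dose of CCl4, they re-enter it: D-type cyclins carry them through G1, E2F factors then switch on the genes for licensing and copying DNA, and later the B-MYB and FOXM1 factors, acting with the MuvB complex, switch on the genes of G2 and mitosis. The same proteins are used by dividing endothelial cells, macrophages and stellate cells. In a bulk library a smaller number of cycling cells and less RNA of these genes per cell therefore cannot be told apart, and neither can the type of cell that was cycling.

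Promoters of the members were read first, because they describe the G1/S genes and the G2/M genes without use of the libraries. RefSeq promoters on GRCm38.p6, from 250 bases before to 50 after the start of transcription, were matched to 33 of the 41 members, 17 of G1/S with 18 promoters and 16 of G2/M with 16 promoters. Ccnd1, Ccne2, Gins2, Mcm4, Aurkb, Ccna2, Foxm1 and Kif20a had no entry in the table. Both strands were searched for the cell cycle genes homology region (CHR, TTTGAA or TTCGAA), which the MuvB complex binds, for the CCAAT box (CCAAT), which NF-Y binds, for E2F letters (TTTCCCGC, TTTGGCGC, TTTCGCGC or TTTGCCGC) and for forkhead letters of the FOXA type (TGTTTAC and its forms TGTTTGC, with G for A, and TATTTAC and TATTTGC, with A for G at the start). E2F matches on opposite strands can overlap and are then capitalised as one stretch. The 3 G2/M promoters below were chosen because each holds CHR and CCAAT, and they belong to cyclin B2, to the mitotic ubiquitin ligase activator CDC20 and to the mitotic kinase CDK1. Each is written 5′ to 3′ on the strand of its gene, with CHR, CCAAT and E2F matches on either strand in capitals.
Ccnb2 (chr9:70421505-70421804, minus strand): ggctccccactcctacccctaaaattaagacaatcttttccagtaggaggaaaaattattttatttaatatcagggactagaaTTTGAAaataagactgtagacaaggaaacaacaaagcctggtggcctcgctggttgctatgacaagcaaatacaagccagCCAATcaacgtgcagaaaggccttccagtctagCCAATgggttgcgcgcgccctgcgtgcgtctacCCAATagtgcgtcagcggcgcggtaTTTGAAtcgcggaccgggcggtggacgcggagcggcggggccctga
Cdc20 (chr4:118437294-118437593, minus strand): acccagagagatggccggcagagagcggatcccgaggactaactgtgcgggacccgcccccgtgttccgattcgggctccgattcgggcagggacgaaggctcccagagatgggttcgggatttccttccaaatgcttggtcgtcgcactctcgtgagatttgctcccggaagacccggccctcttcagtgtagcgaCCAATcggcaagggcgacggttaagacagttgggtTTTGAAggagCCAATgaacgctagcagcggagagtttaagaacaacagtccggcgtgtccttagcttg
Cdk1 (chr10:69352863-69353162, minus strand): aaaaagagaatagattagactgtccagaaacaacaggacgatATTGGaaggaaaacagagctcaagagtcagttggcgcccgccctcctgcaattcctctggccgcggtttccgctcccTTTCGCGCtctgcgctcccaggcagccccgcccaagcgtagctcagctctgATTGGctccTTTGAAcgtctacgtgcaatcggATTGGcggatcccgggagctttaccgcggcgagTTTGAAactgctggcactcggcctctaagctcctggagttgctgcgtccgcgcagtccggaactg

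A CHR was present in 12 of the 16 G2/M promoters (75.0%), against 3 of 18 G1/S promoters (16.7%) and 19.2% of all 32851 RefSeq promoters of the table. In 11 of the 16 G2/M promoters (68.8%) a CHR began no more than 50 bases from the start of transcription, against 5.31% of all promoters. In Cdc20 it began at position −18, in Cdk1 at −15 and −71 and in Ccnb2 at 5 and −167. A CCAAT box was found in 14 of 16 G2/M promoters (87.5%), in 12 of 18 G1/S promoters (66.7%) and in 37.4% of all promoters. The CHR and the CCAAT box stood together in 12 of 16 G2/M promoters, in 3 of 18 G1/S promoters and in 7.52% of all. The G2/M members thus mostly shared a CHR together with CCAAT boxes. The arms were set by known phase, and MuvB acts on genes of G2 and mitosis. The CHR was therefore foreseeable and is no independent support for the split.

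The 3 G1/S promoters were chosen for contrast. MCM6 is a subunit of the replicative helicase, CDT1 loads that helicase onto origins, and MCM10 activates it; Cdt1 and Mcm10 are the members with the smallest p-values below.
Mcm6 (chr1:128359656-128359955, minus strand): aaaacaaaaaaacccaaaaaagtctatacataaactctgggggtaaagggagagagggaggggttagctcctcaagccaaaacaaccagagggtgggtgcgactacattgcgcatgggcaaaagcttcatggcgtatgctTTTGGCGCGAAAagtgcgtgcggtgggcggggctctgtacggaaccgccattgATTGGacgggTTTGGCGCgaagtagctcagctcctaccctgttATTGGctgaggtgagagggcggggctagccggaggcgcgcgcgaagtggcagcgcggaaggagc
Cdt1 (chr8:122567765-122568064, plus strand): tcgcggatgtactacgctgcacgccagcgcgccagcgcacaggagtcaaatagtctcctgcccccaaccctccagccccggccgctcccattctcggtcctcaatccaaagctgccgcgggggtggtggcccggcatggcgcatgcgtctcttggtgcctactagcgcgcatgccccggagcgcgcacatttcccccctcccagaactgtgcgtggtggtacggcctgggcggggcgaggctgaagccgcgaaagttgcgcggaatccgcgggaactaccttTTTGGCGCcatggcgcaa
Mcm10 (chr2:5012742-5013041, minus strand): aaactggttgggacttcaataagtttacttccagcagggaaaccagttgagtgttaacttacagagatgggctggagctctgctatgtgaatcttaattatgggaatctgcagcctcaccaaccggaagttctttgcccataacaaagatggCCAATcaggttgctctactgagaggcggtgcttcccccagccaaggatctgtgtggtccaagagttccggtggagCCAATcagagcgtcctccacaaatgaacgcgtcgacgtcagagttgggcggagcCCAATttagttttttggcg

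E2F letters stood in 7 of 18 G1/S promoters (38.9%), in 1 of 16 G2/M promoters (6.25%), that of Cdk1, and in 2.26% of all promoters. In Mcm6 they began at positions −110, −106 and −47 and in Cdt1 at 33. The Mcm10 promoter held CCAAT boxes at −98, −23 and 32 and none of the other letters. FOXA letters stood in 3 of 18 G1/S promoters (16.7%), in 2 of 16 G2/M promoters (12.5%) and in 13.5% of all promoters, so the members held them about as often as any gene. Those 5 promoters were of Cdc45, Mcm7, Tyms, Ccnb2 and Top2a. A match is only a run of letters, and binding was not measured here.

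The libraries held 20983455 to 28327765 counts and the members 0.156 to 0.186% of them. Foxa2, the deleted gene, had 442, 246 and 516 counts in FOXA2f/f replicates 1, 2 and 4 and 28, 19 and 35 in FOXA2H-KO replicates 1, 2 and 4. All libraries labelled FOXA2H-KO were below all labelled FOXA2f/f. Foxa2 fell with a log2 fold change of −3.85 (SE 0.31, adjusted p = 0.0313, edgeR quasi-likelihood test). Its log2 fold change lay between −4.17 and −3.38 in all 15 alternative settings tried. The call was lost in 8 of them, with adjusted p-values from 4.22e-29 (DESeq2) to 0.499 (edgeR, without FOXA2H-KO replicate 1). Albumin, the defining hepatocyte transcript, was between 83490 and 124578 CPM (a gene's share of its library after TMM scaling) and all 10 hepatocyte markers were detected in every library. Markers of endothelial cells, macrophages, stellate cells and cholangiocytes were detected too, and 1 library, FOXA2f/f replicate 2, stood apart in them, as described below.

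The cell cycle machinery was expressed at measurable levels in both groups. On the authors' FPKM scale, which divides by gene length, the highest mean levels over the 6 libraries were those of Rrm2, a subunit of ribonucleotide reductase, with 31.3 FPKM, of cyclin D1 (Ccnd1) with 30.6 FPKM and of the sliding clamp Pcna with 29.4 FPKM. The lowest were those of the licensing factor Cdc6 with 0.741 FPKM, of cyclin E2 (Ccne2) with 1.24 FPKM and of the helicase component Gins2 with 1.99 FPKM. The G1/S members had a median of 6.24 FPKM and the G2/M members one of 5.63 FPKM. In G2/M, Mki67, which encodes the proliferation antigen Ki-67, led with 19.0 FPKM, followed by Ccnb2 with 17.7 FPKM and Cdc20 with 16.2 FPKM. Foxm1, the transcription factor of the G2/M programme, had the lowest G2/M level with 2.61 FPKM. Neighbours in the order of levels overlapped in their range over the 6 libraries except Pcna and Rrm1, Mcm5 and Top2a, and Gins2 and Ccne2. The lengths implied by these FPKM values differed from GENCODE M21 for most members, with a median of 134% of its exon length for G1/S and 121% for G2/M members, so the order depends on the authors' gene models.

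**Figure D1:**
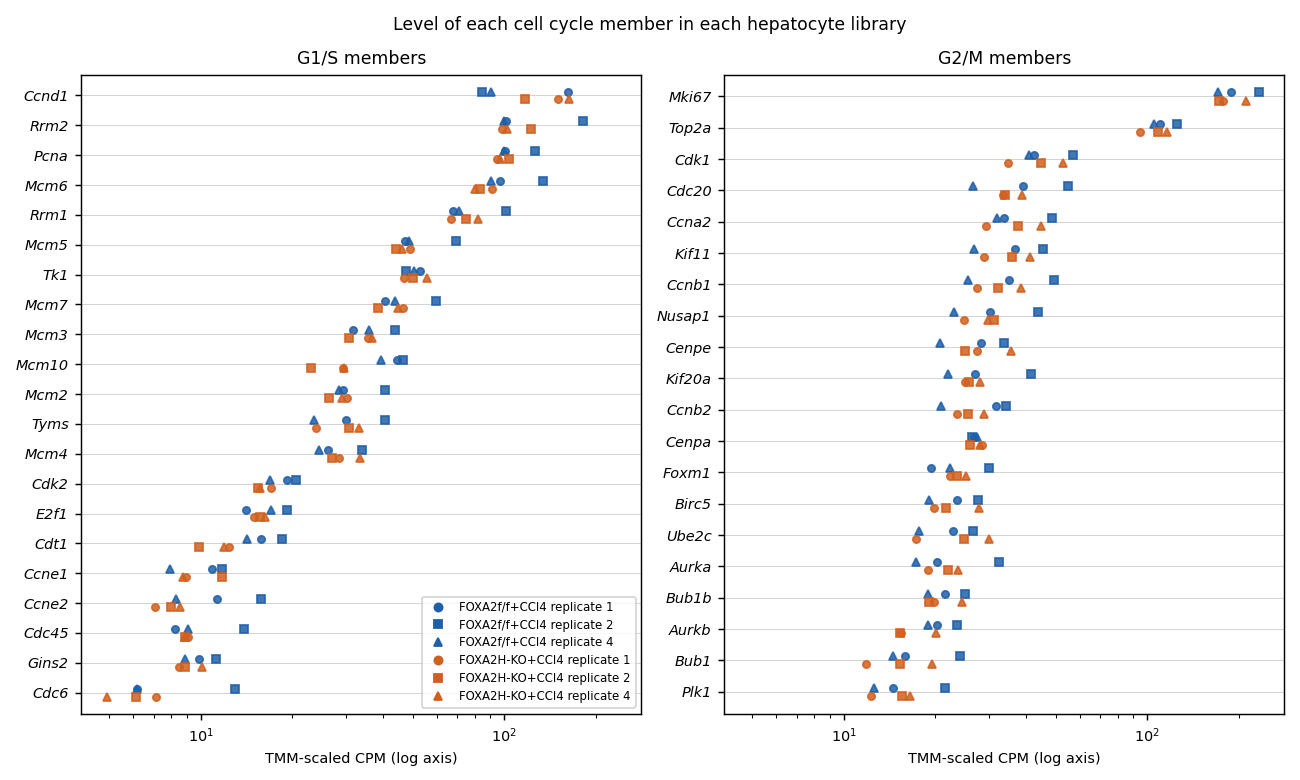
Level of every member in each library, in CPM on a log axis, with the 21 G1/S members on the left and the 20 G2/M members on the right. Blue symbols are FOXA2f/f+CCl4 and orange symbols FOXA2H-KO+CCl4, with circle, square and triangle for replicates 1, 2 and 4. The groups overlap in every row but Mcm10 and Cdt1, and the blue square, FOXA2f/f replicate 2, lies farthest to the right in 35 rows.

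None of the 41 members was called different between FOXA2H-KO and FOXA2f/f hepatocytes, where a call needed an adjusted p under 0.05 and a fold of at least 2. Of all 14417 genes tested 0.00694% were called, that is Foxa2 alone. DESeq2, edgeR's exact test and limma-voom called 0 members as well. They called few genes in all: 73 of 22561 fitted, 64 of 14417 and 4 of 14417. An unadjusted p under 0.05 was reached by 2 of 21 G1/S members, Mcm10 and Cdt1, and by 0 of 20 G2/M members, against 5.17% of all genes tested. Adjusted p-values of the members ran from 0.579 to 0.999 (edgeR quasi-likelihood test, Benjamini-Hochberg adjustment over all genes). The median log2 fold change was −0.15 for the G1/S members and −0.09 for the G2/M members, beside −0.01 for all genes tested. The fitted value was below 0 for 18 of 21 G1/S members and for 17 of 20 G2/M members, together 85.4%, against 52.2% of all genes tested. The members share the libraries and move together, so these shares are not those of independent genes.

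The intervals set a limit to the size of a difference. The 95% interval of the fold change stayed within 2-fold in either direction for 38 of 41 members, for all 20 of G2/M and for 18 of 21 of G1/S, the exceptions being Mcm10, Ccne2 and Cdc6, whose intervals reached below a fold of 0.5. Among all genes tested the interval stayed within 2-fold for 67.3%. Standard errors of the members were between 0.11 and 0.33 on the log2 scale.

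**Figure D2:**
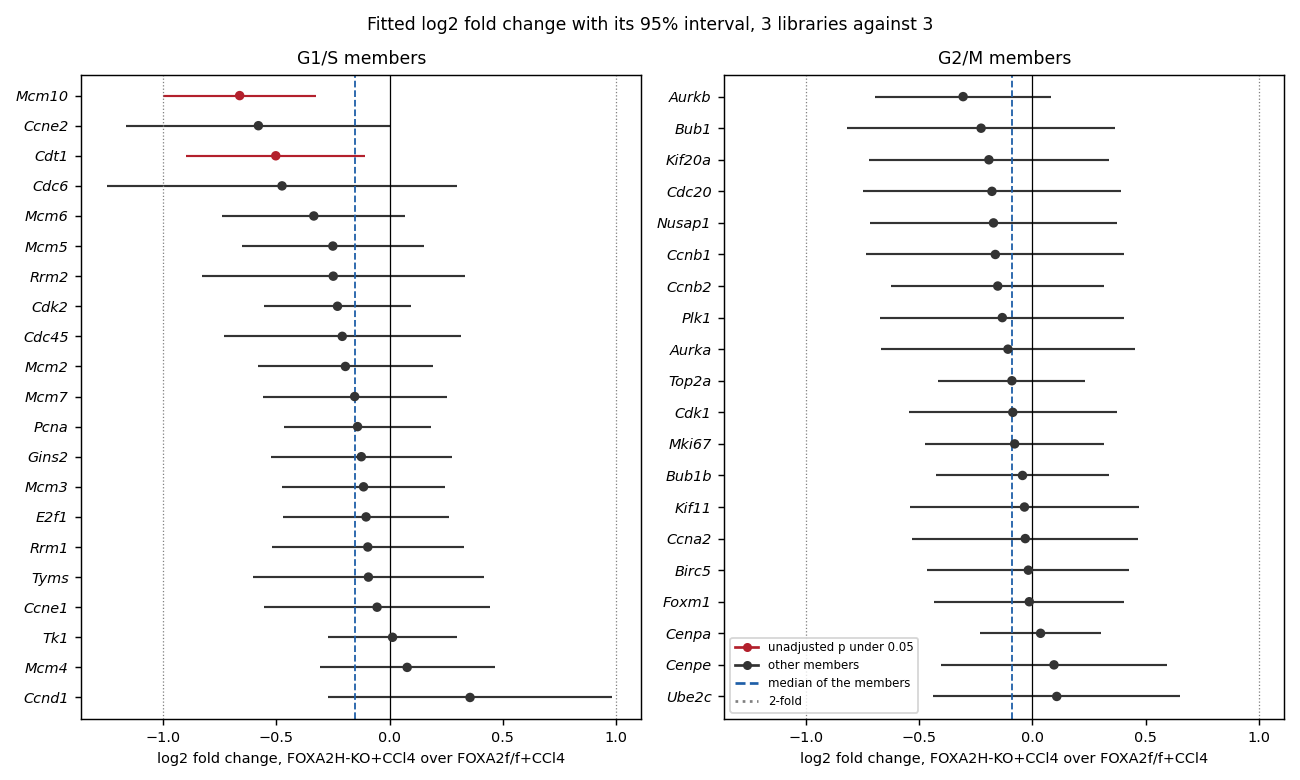
Fitted log2 fold change of FOXA2H-KO+CCl4 over FOXA2f/f+CCl4 with its 95% interval for each member (horizontal axis, log2 units), G1/S members on the left and G2/M members on the right. Points left of 0 are lower in FOXA2H-KO. Mcm10 and Cdt1, in red, have an unadjusted p under 0.05, the dashed lines are the medians of −0.15 and −0.09, and the dotted lines mark 2-fold.

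Among the genes that start G1, cyclin D1 had a fitted value above 0 whose size depended on the setting. Its sign changed in 1 of the 15 alternative settings tried. Ccnd1 (ENSMUSG00000070348, chromosome 7, 144929931 to 144939925, minus strand, GRCm38), whose product activates CDK4 and CDK6, had 162, 84.3 and 90.8 CPM in FOXA2f/f replicates 1, 2 and 4 and 151, 117 and 163 CPM in FOXA2H-KO replicates 1, 2 and 4. FOXA2f/f replicate 1 lay within the FOXA2H-KO values, so the groups overlapped. Its log2 fold change was 0.36 (SE 0.27, 95% interval −0.27 to 0.98, adjusted p = 0.983, edgeR), the highest of the 41, and its exons overlap those of LTO1 over 23.4% of their length, which makes its counts less certain. The value was 0.73 without FOXA2f/f replicate 1, 0.19 without FOXA2f/f replicate 2 and −0.02 with voom and library quality weights. E2f1, the factor released when the retinoblastoma protein is phosphorylated, had a log2 fold change of −0.10.

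The cyclins E and their kinase, which complete the passage into S phase, had fitted values below 0, none with an unadjusted p under 0.05. Ccne1 had 10.9, 11.8 and 7.95 CPM in FOXA2f/f and 8.94, 11.7 and 8.74 CPM in FOXA2H-KO, with overlapping groups and a log2 fold change of −0.06, whose sign changed in 6 of the 15 alternative settings tried. Ccne2 (ENSMUSG00000028212) had 11.3, 15.8 and 8.26 CPM in FOXA2f/f and 7.06, 7.98 and 8.56 CPM in FOXA2H-KO. Here FOXA2H-KO replicate 4 was above FOXA2f/f replicate 4, and the other FOXA2H-KO libraries were below all of FOXA2f/f. The log2 fold change of Ccne2 was −0.58 (SE 0.25, 95% interval −1.16 to 0.00, adjusted p = 0.941, edgeR), and 17.4% of its exon length is shared with Ints8. Without FOXA2f/f replicate 2 the value was −0.31. Cdk2, the kinase that both cyclins E bind, had 19.2, 20.6 and 16.8 CPM in FOXA2f/f and 17.1, 15.5 and 15.7 CPM in FOXA2H-KO, with an overlap of FOXA2f/f replicate 4 and FOXA2H-KO replicate 1 and a log2 fold change of −0.23.

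Mcm10 and Cdt1, of helicase activation and origin licensing, were the 2 of 41 members without overlap between the groups, both lower in FOXA2H-KO. Of all genes tested 5.96% were lower and 4.54% higher without overlap, so this count is no more than the share over all genes. Mcm10 (ENSMUSG00000026669, chromosome 2, 4989714 to 5012791, minus strand) encodes the factor that activates the loaded helicase at origins. It had 1034, 846 and 1233 counts or 44.4, 46.4 and 39.2 CPM in FOXA2f/f replicates 1, 2 and 4, and 798, 577 and 641 counts or 29.4, 23.1 and 29.6 CPM in FOXA2H-KO replicates 1, 2 and 4. Every FOXA2H-KO library was below every FOXA2f/f library, a pattern that 5.96% of all genes tested had in this direction. The mean was 43.3 ± 3.72 CPM (SD, n = 3) in FOXA2f/f and 27.4 ± 3.67 CPM (SD, n = 3) in FOXA2H-KO, 63.2% of the control level. The log2 fold change was −0.66 (SE 0.15, 95% interval −1.001 to −0.32), but the adjusted p was 0.579 in edgeR's quasi-likelihood test and 0.065 in DESeq2. Leaving out each library in turn moved it only between −0.73 and −0.55, so it did not rest on FOXA2f/f replicate 2.

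Cdt1 (ENSMUSG00000006585, chromosome 8, 122568015 to 122573554, plus strand) encodes the protein that loads the MCM helicase onto origins. It had 15.8, 18.5 and 14.2 CPM in FOXA2f/f and 12.4, 9.86 and 11.9 CPM in FOXA2H-KO, again without overlap of the groups. Its log2 fold change was −0.50 (SE 0.17, 95% interval −0.90 to −0.11, adjusted p = 0.836, edgeR), and with one library left out it lay between −0.59 and −0.39. Cdc6, the loading factor that works with CDT1, had a log2 fold change of −0.47 (SE 0.33), and FOXA2f/f replicate 2 with 13.0 CPM stood above the other 5 libraries, which had 4.90 to 7.10 CPM. Without that library its value was −0.03. Of the remaining helicase factors, Cdc45 had −0.21 and Gins2 −0.12, the latter in exons that overlap Gse1 over 67.3% of their length.

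The MCM2 to MCM7 subunits form the helicase ring itself. Their median log2 fold change was −0.17, with 5 of 6 below 0 and none with an unadjusted p under 0.05. Mcm2 had 29.5, 40.4 and 28.4 CPM in FOXA2f/f and 30.2, 26.4 and 29.2 CPM in FOXA2H-KO, so that FOXA2f/f replicate 2 was high and the other 5 libraries were alike. Mcm6 had 96.8, 134 and 90.4 CPM in FOXA2f/f and 91.3, 83.3 and 80.2 CPM in FOXA2H-KO, and FOXA2H-KO replicate 1 lay just above FOXA2f/f replicate 4. Its log2 fold change of −0.33 (SE 0.17) was the lowest of the ring, followed by Mcm5 with −0.25, Mcm2 with −0.19, Mcm7 with −0.15 and Mcm3 with −0.11, while Mcm4 had 0.08.

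Genes for nucleotide supply and the replication fork had log2 fold changes between −0.25 and 0.01. Pcna, the clamp of DNA polymerase, had 100.5, 126 and 99.4 CPM in FOXA2f/f and 94.8, 104 and 96.8 CPM in FOXA2H-KO, with a log2 fold change of −0.14. Rrm2 had 101, 182 and 100.1 CPM in FOXA2f/f and 98.6, 122 and 102 CPM in FOXA2H-KO, with a log2 fold change of −0.25 that became 0.10 without FOXA2f/f replicate 2. Tk1, thymidine kinase of the salvage pathway, had 53.0, 47.4 and 50.4 CPM in FOXA2f/f and 46.6, 50.1 and 55.5 CPM in FOXA2H-KO. Tk1 thus differed from Rrm2 in that FOXA2f/f replicate 2 was not high in it, and its log2 fold change was 0.01 (SE 0.12). Rrm1, the large subunit of ribonucleotide reductase, had −0.10 and thymidylate synthase Tyms −0.09.

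The genes of G2 and mitosis overlapped between the groups in all 20 cases. Of all genes tested 4.54% were higher and 5.96% lower in FOXA2H-KO without overlap. Mki67 (ENSMUSG00000031004, chromosome 7, 135689784 to 135716361, minus strand) had 188, 233 and 171 CPM in FOXA2f/f and 177, 173 and 212 CPM in FOXA2H-KO. The highest and the lowest of its 6 values were both FOXA2f/f libraries. The log2 fold change was −0.08 (SE 0.17, 95% interval −0.47 to 0.32), which is a fold of 0.947 with limits of 0.72 and 1.24. Top2a, the topoisomerase that untangles sister chromosomes, had 110, 125 and 105 CPM in FOXA2f/f and 94.4, 109 and 116 CPM in FOXA2H-KO, with a log2 fold change of −0.09.

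Foxm1 and the mitotic cyclins and kinase gave log2 fold changes between −0.16 and −0.01. Foxm1 had 19.4, 30.0 and 22.5 CPM in FOXA2f/f and 22.3, 23.5 and 25.3 CPM in FOXA2H-KO, and a log2 fold change of −0.01. Cyclin A2 (Ccna2), which drives S and G2, had 33.8, 48.5 and 31.9 CPM in FOXA2f/f and 29.5, 37.5 and 44.7 CPM in FOXA2H-KO, and −0.03. Cyclin B1 (Ccnb1) had 35.1, 49.2 and 25.7 CPM in FOXA2f/f and 27.5, 32.2 and 38.4 CPM in FOXA2H-KO, and −0.16. In these genes FOXA2f/f replicate 2 was the highest library and FOXA2H-KO replicate 4 the highest of its group. Cyclin B2 (Ccnb2) had 31.9, 34.4 and 20.8 CPM in FOXA2f/f and 23.6, 25.6 and 28.9 CPM in FOXA2H-KO, and −0.15. Their kinase partner Cdk1 had 42.4, 57.0 and 40.8 CPM in FOXA2f/f and 34.8, 44.6 and 52.6 CPM in FOXA2H-KO, and −0.09. All FOXA2H-KO values of Ccnb2 lay inside the range of the FOXA2f/f values.

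The mitotic kinases, checkpoint and spindle genes completed the arm. Aurkb, the kinase of the chromosomal passenger complex, had the smallest p of G2/M, with 20.3, 23.7 and 19.0 CPM in FOXA2f/f and 15.5, 15.3 and 20.1 CPM in FOXA2H-KO (log2 fold change −0.31, SE 0.17, adjusted p = 0.957, edgeR). FOXA2H-KO replicate 4 lay among the FOXA2f/f values. The checkpoint kinase Bub1 had 16.0, 24.2 and 14.5 CPM in FOXA2f/f and 11.9, 15.3 and 19.5 CPM in FOXA2H-KO (−0.23, SE 0.25). The kinesin Kif20a had 27.1, 41.4 and 22.1 CPM in FOXA2f/f and 25.0, 25.9 and 28.1 CPM in FOXA2H-KO (−0.19, SE 0.23), with 29.3% of its exons shared with Cdc23. The spindle protein Nusap1 had 30.4, 43.7 and 23.0 CPM in FOXA2f/f and 24.9, 31.3 and 29.9 CPM in FOXA2H-KO (−0.17, SE 0.23). In the last 2 genes FOXA2f/f held both the highest and the lowest value.

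The other G2/M members had small values of either sign. Cdc20, the activator of the anaphase-promoting complex, had a log2 fold change of −0.18, the polo kinase Plk1 −0.13, the spindle kinase Aurka −0.11, the checkpoint protein Bub1b −0.04, the spindle motor Kif11 −0.04 and Birc5 (survivin), of the passenger complex, −0.02. The ubiquitin-conjugating enzyme Ube2c had 0.11, with 22.8% of its exons shared with Tnnc2, the centromere motor Cenpe had 0.10 and the centromeric histone Cenpa 0.04. Cenpa was the steadiest member, at 26.9 ± 0.55 CPM (SD, n = 3) in FOXA2f/f and 27.6 ± 1.34 CPM (SD, n = 3) in FOXA2H-KO. Without FOXA2f/f replicate 2 only 3 of the 20 G2/M members had a value below 0.

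**Figure D3:**
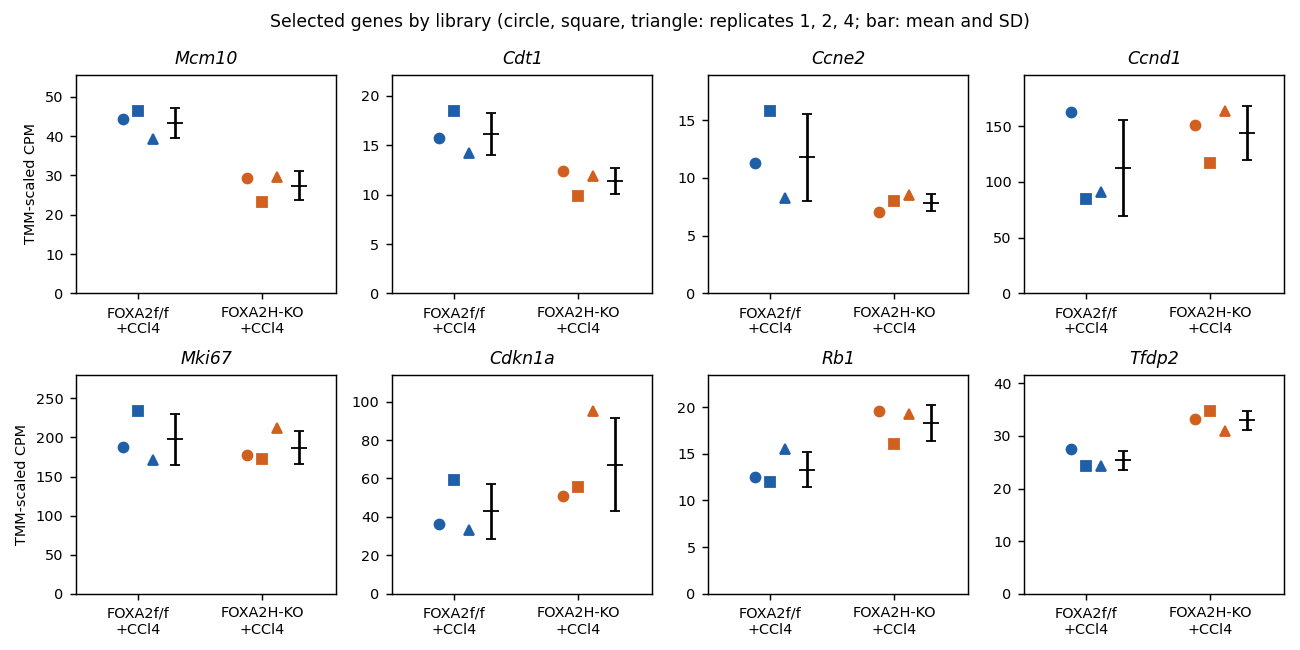
CPM (vertical axis, from 0) of 5 members and 3 regulators in each library, with circle, square and triangle for replicates 1, 2 and 4 and the mean with its SD beside them. Mcm10 and Cdt1 do not overlap between the groups and are lower in FOXA2H-KO, Ccne2, Ccnd1, Mki67 and Cdkn1a overlap, and Rb1 and Tfdp2 do not overlap and are higher in FOXA2H-KO.

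The members varied together between libraries of one group. FOXA2f/f replicate 2 was the highest of all 6 libraries in 19 of 21 G1/S and 16 of 20 G2/M members. Its median deviation from the gene's mean over the 6 libraries, on the log2 scale, was 0.41 for G1/S and 0.35 for G2/M members, while for G1/S all other libraries were between −0.11 and −0.04. For G2/M members the other medians were spread more widely, at 0.01 and −0.27 in FOXA2f/f replicates 1 and 4 and −0.22, −0.07 and 0.13 in FOXA2H-KO replicates 1, 2 and 4. FOXA2f/f replicate 4 was the lowest of its group in 18 of 20 G2/M members and FOXA2H-KO replicate 4 the highest of its group in 18 of 20. Ccnd1 did not follow: in FOXA2f/f replicate 2 it was at its lowest, and it amounted to 4.11% of the summed CPM of the other 40 members there, against 6.36 to 10.6% in the other libraries.

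**Figure D4:**
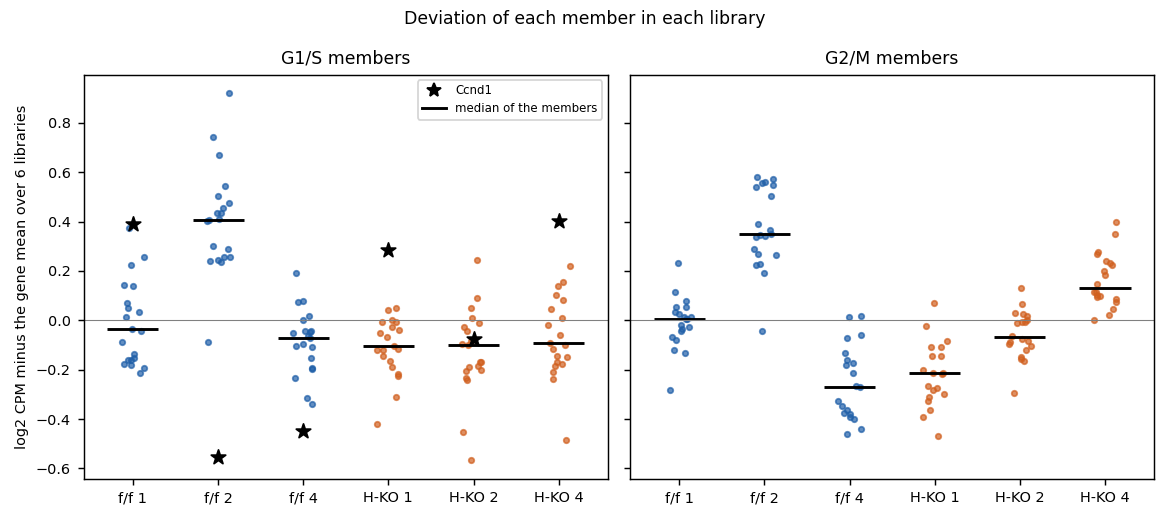
Deviation of each member from its own mean over the 6 libraries (vertical axis, log2 CPM), by library, with G1/S members on the left and G2/M members on the right. Each dot is a gene, black bars are medians and the star is Ccnd1. The bar of FOXA2f/f replicate 2 stands at 0.41 and 0.35, above all other libraries, while its Ccnd1 star is the lowest of the 6.

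Summed levels gave the same picture. The 21 G1/S members summed to 926, 1134 and 834 CPM in FOXA2f/f replicates 1, 2 and 4 and to 877, 857 and 918 CPM in FOXA2H-KO replicates 1, 2 and 4. The 20 G2/M members summed to 788, 1005 and 684 CPM in FOXA2f/f and to 693, 757 and 882 CPM in FOXA2H-KO. The means were 965 ± 153 and 884 ± 31.1 CPM (SD, n = 3) for G1/S and 826 ± 164 and 778 ± 96.1 CPM (SD, n = 3) for G2/M, so that the difference of the groups was smaller than the SD of the FOXA2f/f libraries in both arms. The ratio of G2/M to G1/S was 0.852 ± 0.0331 (SD, n = 3) in FOXA2f/f and 0.878 ± 0.0855 (SD, n = 3) in FOXA2H-KO, and the balance of the arms overlapped between the groups.

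Markers of other cells differed between the same libraries. FOXA2f/f replicate 2 had the lowest sums of the 10 endothelial markers, 262 CPM against 436 to 893 CPM in the other libraries, of the 10 macrophage markers, 621 CPM against 1313 to 2860 CPM, and of the 10 stellate cell and fibroblast markers, 1084 CPM against 1308 to 2781 CPM. Its 10 hepatocyte markers had the highest sum, 159253 CPM, against 111688 to 142545 CPM elsewhere. Albumin alone made up 124578 CPM of it, so this sum mostly follows 1 gene. FOXA2f/f replicate 4, the lowest library of G2/M members, had the highest sums of the endothelial, macrophage and stellate cell lists. By group, the 8 cholangiocyte markers summed to 189 to 383 CPM in FOXA2f/f and 264 to 720 CPM in FOXA2H-KO, the 8 neutrophil markers to 10.6 to 98.8 CPM and 19.3 to 31.6 CPM, the 10 lymphocyte markers to 19.4 to 83.9 CPM and 44.0 to 75.3 CPM, and the 7 erythroid markers to 107 to 257 CPM and 67.7 to 101 CPM. The erythroid sum did not overlap between the groups, and it was 257 CPM in FOXA2f/f replicate 2 against 67.7 to 118 CPM in the other 5 libraries. All endothelial, macrophage, stellate cell and cholangiocyte markers were detected in every library, whereas the lymphocyte markers Cd3e, Cd3g and Gzma and the neutrophil marker Ly6g were at 0 in FOXA2f/f replicate 2. Cd3g was at 0 in FOXA2H-KO replicate 4 too, and Ly6g in FOXA2H-KO replicate 2. In tests by gene, 4 of 7 neutrophil markers had an unadjusted p under 0.05 (edgeR), all 4 lower in FOXA2H-KO. The share over all genes tested was 5.17%. The neutrophil median log2 fold change was −1.94, with 2 values above 0. Of 7 cholangiocyte markers 2 had such a p, both higher, with a median of 0.72 and 1 value below 0. Of 10 macrophage and 10 stellate cell markers 9 each were above 0, 0 with such a p. Of the 10 hepatocyte markers 8 were below 0 and 2 above, with a median of −0.12, and 1 had such a p, lower in FOXA2H-KO. Of 6 erythroid markers tested 2 had such a p, both lower, with 3 values below 0 and 3 above. None of these lists held a called gene. The part of these cells in the levels of the members was not tested.

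**Figure D5:**
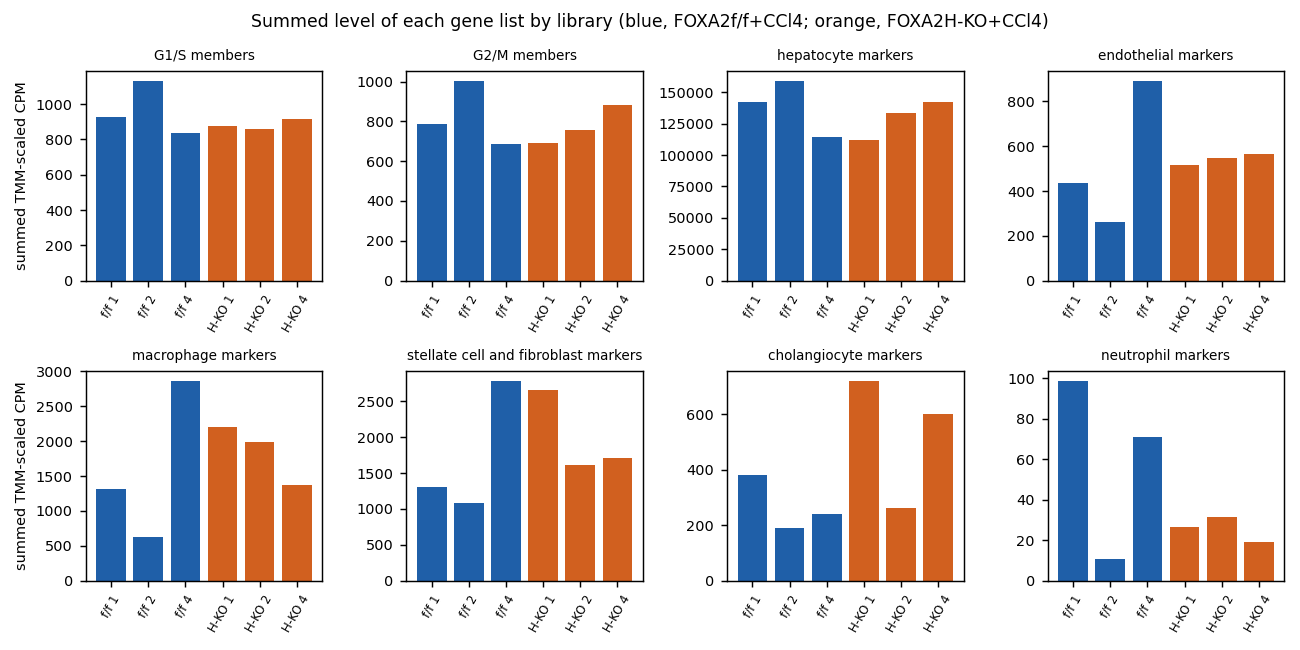
Summed CPM (vertical axis, from 0) of the G1/S members, the G2/M members and 6 lists of cell type markers in each library, blue for FOXA2f/f+CCl4 and orange for FOXA2H-KO+CCl4. In FOXA2f/f replicate 2 the members and the hepatocyte markers have their highest bars, and the endothelial, macrophage, stellate cell, cholangiocyte and neutrophil markers their lowest.

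The direction of most members rested on FOXA2f/f replicate 2. Without it the median log2 fold change was −0.02 for the G1/S members and 0.11 for the G2/M members, and 11 of 21 and 3 of 20 members had values below 0. With all libraries 18 G1/S members were below 0, of which 8 turned positive, and 1 of the others turned negative. Of the 17 such G2/M members, 14 turned positive. Without FOXA2f/f replicate 4 the medians were −0.26 and −0.19. Leaving out FOXA2H-KO replicate 1 gave medians of −0.19 and −0.01, with 16 of 21 and 11 of 20 members below 0. There 6 of the 17 G2/M members turned positive, so the G2/M direction depended on this library too. Scaling by library size alone moved the median of all genes to 0.10 and put 12 of 21 G1/S and 7 of 20 G2/M members below 0, while the medians relative to all genes, −0.12 and −0.07, stayed near the −0.14 and −0.08 of the TMM scaling.

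Further genes of the same pathways were read to see whether they went with the members, and 0 of them were called. Of 33 other S phase genes 32 were tested and 0 had an unadjusted p under 0.05, against 5.17% of all genes tested. Their median log2 fold change was −0.06, with 23 below 0. Without overlap of the groups 1 was higher and 2 were lower in FOXA2H-KO, beside 4.54% and 5.96% of all genes tested. The smallest p-values were those of Rpa2, of the single-strand binding complex, with −0.25 and of the dUTPase Dut with −0.21. Fen1 was not tested, having at most 7 counts in a library. Of 45 other mitosis genes all were tested, 0 had an unadjusted p under 0.05, and 24 were below 0 with a median of −0.01. In this list 3 were higher and 1 lower without overlap. Here Kif23, a kinesin of cytokinesis, had 12.3, 12.3 and 11.0 CPM in FOXA2f/f and 15.0, 15.0 and 14.1 CPM in FOXA2H-KO, higher without overlap as in 4.54% of all genes tested (log2 fold change 0.31, SE 0.14, adjusted p = 0.941, edgeR). Separase, Espl1, had 11.6, 13.8 and 11.9 CPM in FOXA2f/f and 10.7, 9.18 and 9.76 CPM in FOXA2H-KO, lower without overlap (−0.33, SE 0.16, adjusted p = 0.941, edgeR). The wider S phase list had more values below 0 than above, and the wider mitosis list was nearly even.

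The inhibitors that hold cells in G1 gave mostly positive values. Of 7 CDK inhibitors 6 were tested, 5 had values above 0 and 0 had an unadjusted p under 0.05. Such a p was reached by 5.17% of all genes tested. Cdkn1a, which encodes p21, had 36.3, 59.2 and 33.2 CPM in FOXA2f/f and 51.0, 55.4 and 94.99 CPM in FOXA2H-KO. FOXA2f/f replicate 2 lay among the FOXA2H-KO values, and FOXA2H-KO replicate 4 was the highest library (log2 fold change 0.65, SE 0.30, 95% interval −0.06 to 1.35, adjusted p = 0.941, edgeR). FOXA2H-KO replicate 4 was thus the highest of its group both in Cdkn1a and in most G2/M members. Cdkn2c, a CDK4 and CDK6 inhibitor, had 0.12. Cdkn2a had 1 to 9 counts in a library and was not tested.

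Of 19 RB, E2F and DREAM regulators 2 had an unadjusted p under 0.05, against 5.17% of all genes tested, and the median of the list was 0.00. Both were higher in FOXA2H-KO without overlap, as were 4.54% of all genes tested. Outside the rule for named genes and chosen after its values were seen, Rbbp4, a histone-binding subunit of the MuvB complex, was lower without overlap, with a log2 fold change of −0.15. Rb1, the retinoblastoma gene, had 12.5, 12.0 and 15.5 CPM in FOXA2f/f and 19.6, 16.0 and 19.2 CPM in FOXA2H-KO (log2 fold change 0.46, SE 0.17, adjusted p = 0.853, edgeR), and 14.9% of its exon length is shared with other genes. Tfdp2, a dimerisation partner of E2F factors, had 27.4, 24.3 and 24.3 CPM in FOXA2f/f and 33.2, 34.7 and 31.0 CPM in FOXA2H-KO (0.38, SE 0.12, adjusted p = 0.812, edgeR). Neither passed the adjustment over all genes. Myc had 11.0, 5.32 and 10.9 CPM in FOXA2f/f and 11.2, 10.8 and 9.67 CPM in FOXA2H-KO, with its lowest value in the library that was highest for the members, and a log2 fold change of 0.21. Of 10 other G1 cyclins and kinases 0 had an unadjusted p under 0.05, and Cks1b, a CDK subunit, with −0.33 and Cdk7, of the CDK-activating kinase, with −0.23 had the smallest.

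Among 32 ligands and receptors of liver regeneration 30 were tested and 4 had an unadjusted p under 0.05, 3 lower and 1 higher in FOXA2H-KO, against 5.17% of all genes tested in either direction, with a list median of −0.05. Btc, which encodes the EGF receptor ligand betacellulin, had 7.26, 9.49 and 4.93 CPM in FOXA2f/f and 3.68, 4.09 and 3.33 CPM in FOXA2H-KO (log2 fold change −0.96, SE 0.27, adjusted p = 0.716, edgeR). Lgr4, a receptor of R-spondins, had 67.7, 78.3 and 65.7 CPM in FOXA2f/f and 50.7, 55.7 and 55.1 CPM in FOXA2H-KO (−0.39, SE 0.12, adjusted p = 0.794, edgeR). In both genes all FOXA2H-KO libraries were below all FOXA2f/f libraries, as in 5.96% of all genes tested. Outside the rule for named genes and chosen after their values were seen, Lifr, the leukaemia inhibitory factor receptor, had 0.43 and Tnfrsf1a, a TNF receptor, −0.32.

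Hepatocyte growth factor, which is made by stellate and endothelial cells, and its receptor had no p under 0.05 before adjustment. Hgf had 42.6, 23.1 and 69.8 CPM in FOXA2f/f and 44.4, 54.3 and 50.9 CPM in FOXA2H-KO (log2 fold change 0.14, SE 0.35). Its lowest and highest values were FOXA2f/f replicates 2 and 4, the libraries with the lowest and highest stellate cell and endothelial sums. Met, the receptor on hepatocytes, had 132, 121 and 84.1 CPM in FOXA2f/f and 120, 133 and 117 CPM in FOXA2H-KO (0.13, SE 0.18). Il6 and Areg had at most 3 and 12 counts in a library and were not tested.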

How the data were processed

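RNA-seq libraries of primary hepatocytes, 3 per group, were analysed from the authors' files. The deposited counts are whole numbers of fragments per Ensembl gene without normalization, and the authors' FPKM values divide them by library total and gene length. The submitters' processing notes name CASAVA 1.8, TopHat2 2.1.0, HTSeq, edgeR and the build mm10. The annotation, and whether counting used strand, are not given in the sources used here, so genes that overlap on either strand are uncertain. A symbol was found for 34267 of 34745 genes. Total counts were 20983455 to 28327765, and no replicates were near-identical.

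Counts were tested in R 4.3.3 with edgeR 4.0.16 (TMM, filterByExpr, quasi-likelihood test, no replicate block, Benjamini-Hochberg adjustment over 14417 genes). Genes were called at an adjusted p under 0.05 and a fold of at least 2. CPM values use TMM-scaled library sizes. The exact permutation test of 3 libraries against 3 cannot go below p = 0.1 and is not given. Positions are from GENCODE M21 and promoters from RefSeq, both on GRCm38.

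The alternatives were DESeq2 1.42.0, other scalings and filters, edgeR's exact test, limma 3.58.1 (voom with quality weights, and log2(FPKM + 0.1)), a replicate block and leaving out each library. The members and all lists were chosen with earlier results of these data known. Named are Foxa2, all 41 members, with values per library for 12 set genes and the 5 of each arm with the smallest p, and of each other list the 2 genes with the smallest p, with Cdkn1a, Myc, Hgf and Met.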

Additional observations from a re-analysis of the deposited data

How the results depend on the processing

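No member was called by any alternative tried, and Mcm10 had an unadjusted p under 0.05 in all 15 of them. Genes called, 1 in all, were 0 with library size alone, with limma on log2(FPKM + 0.1) and with the replicate block, 2 without a filter on low counts, 4 with voom and quality weights, 64 with edgeR's exact test, 73 with DESeq2 and 0 to 6 with each library left out. Genes with an unadjusted p under 0.05 were 745, 2152 with voom and quality weights and 411 to 2424 with each library left out, the highest without FOXA2f/f replicate 4 and the lowest without FOXA2H-KO replicate 4. G1/S members with such a p were 2, but 1 with library size alone, 4 with voom and quality weights and 1 to 4 with each library left out. For G2/M members this range was 0 to 1. The smallest adjusted p of a member was 0.065 with DESeq2, 0.080 with the exact test and 0.083 with voom, each for Mcm10.

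The same-numbered libraries did not deviate together (correlations −0.069, 0.026 and −0.23 for numbers 1, 2 and 4), so the numbers were not read as pairs. With the replicate block 1 G1/S member, Mcm10, had an unadjusted p under 0.05, and the medians were −0.14 for G1/S and −0.08 for G2/M members.

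The median log2 fold change of G1/S members was −0.26 to −0.02 and that of G2/M members −0.19 to 0.11 with each library left out, and without FOXA2f/f replicate 2 the G2/M median turned positive. Library size alone gave −0.02 and 0.03, and limma on FPKM −0.02 and 0.04, each with 16 members of changed sign; voom gave −0.05 and −0.02, with 12. With library size alone and with limma on FPKM the median of all genes moved too, to 0.10 and 0.11. Relative to it the G1/S medians were −0.12 and −0.13 and the G2/M medians −0.07 and −0.07. In the main fit these relative medians were −0.14 and −0.08. The cause of the shifts was not tested. Depth gave each member at least 106 counts per library. The intervals come from the quasi-likelihood fit, in which edgeR estimates the spread between libraries with help from all genes. They therefore do not rest on each member's own spread alone. A separate edgeR estimate of each gene's spread, likewise made with help from all genes, was 13.9 to 30.3% of the level for the members.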
